A study of Rattus norvegicus with 12 samples.

Results

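The right atrial appendage of male Sprague-Dawley rats was compared between animals with an aorto-caval shunt and sham-operated animals, 28 days after the operation. All arrays titled as right atrium were taken, 3 shunt and 3 sham, which make 6 of the 12 arrays in the study. The remaining 6 arrays hold left atrium of the same design. Each array measured RNA from a pool of 2 tissues, so an individual rat has no value of its own, and p-values measure the spread between such pools. No group carried a drug, transgene or other genotype, and the age of the animals is not given in the sources used here. An aorto-caval shunt joins the abdominal aorta to the vena cava, so that arterial blood returns to the right atrium and the heart works under a volume load.

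Atrial muscle that is stretched for weeks enlarges and switches on genes otherwise typical of the fetal heart, among them skeletal alpha-actin and the slow myosin heavy chain. The fibroblasts between the muscle cells are known to lay down collagens, elastic microfibrils and matricellular proteins under the control of transforming growth factor beta and of stretch. The atria are also endocrine organs that release the natriuretic peptides ANP and BNP.

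Values are log2 expression values made by robust multi-array averaging (RMA), 1 value per probe set, and are listed in the order of replicates 1, 2 and 3. Changes are shunt minus sham on the log2 scale with the standard error (SE) of a limma fit, in which a change of 1 is 2-fold. Adjusted p-values are those of that limma fit after Benjamini-Hochberg adjustment over 31042 probe sets, with a threshold of 0.05, and "rose" and "fell" are used only of genes past it. A gene with more than 1 probe set is given by the brightest of them on average. Other probe sets of a gene can differ from it, and calls lost as their mean are counted in the closing text. The array medians lay between 5.44 and 5.47.

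Markers of atrial muscle were high on all 6 arrays, which shows that atrial muscle was present but not that it was the only muscle. Nppa, the precursor of ANP, lay between 14.37 and 14.43 on the 6 arrays, at the very top of the scale. Myl7, the atrial regulatory light chain, lay between 14.06 and 14.27, and sarcolipin (Sln), an atrial regulator of the calcium pump, between 13.57 and 13.71. Myl2, the ventricular regulatory light chain, was also well above the array medians in sham tissue, at 11, 10.93 and 10.90. The tissue entry of the labels names ventricles besides atria, although the sources and titles name atria alone.

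After the shunt 591 probe sets were higher (1.9%) and 332 lower (1.07%), which makes 923 of 31042 past the threshold (2.97%). An unadjusted limma p under 0.05 was reached by 6127 probe sets (19.7%). All shunt arrays lay above all sham arrays for 4620 probe sets (14.9%) and below them for 4203 (13.5%). Counted as genes, 403 of 14217 rose (2.83%) and 162 fell (1.14%), and the median difference over all genes was 0.02. In the left atrium 233 probe sets passed (0.751%), 88 higher (0.283%) and 145 lower (0.467%). In the right atrium 30 probe sets rose (0.0966%) and 16 fell (0.0515%) by 2-fold or more, which counted as genes is 17 (0.12%) and 6 (0.0422%). The smallest change past the threshold was 0.26. Over the 403 genes that rose, the medians above the sham mean were 0.47, 0.46 and 0.42 on the 3 shunt pools, and replicate 3 was the pool nearest to sham for 204 of them, against 108 and 91 for replicates 1 and 2. These genes were called on the same pools, so the medians only describe them. Without 1 array the number past the threshold was lower for each right atrial array: 266 without shunt replicate 1, 148 without shunt replicate 2, 442 without shunt replicate 3, and 397, 234 and 312 without sham replicates 1, 2 and 3. Among left atrial arrays, leaving out shunt replicate 3 raised it to 1631. When the values were quantile-normalized again 664 probe sets passed, of which 53.0% were higher, against 64.0% of the 923. The 3 prime to 5 prime difference of the beta-actin control probe sets, a sign of RNA quality, was 2.03, 1.96 and 1.91 in shunt and 1.82, 1.59 and 1.58 in sham. That of GAPDH was 0.38, 0.36 and 0.35 against 0.40, 0.34 and 0.32. The part of RNA quality in the changes was not tested.

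**Figure D1:**
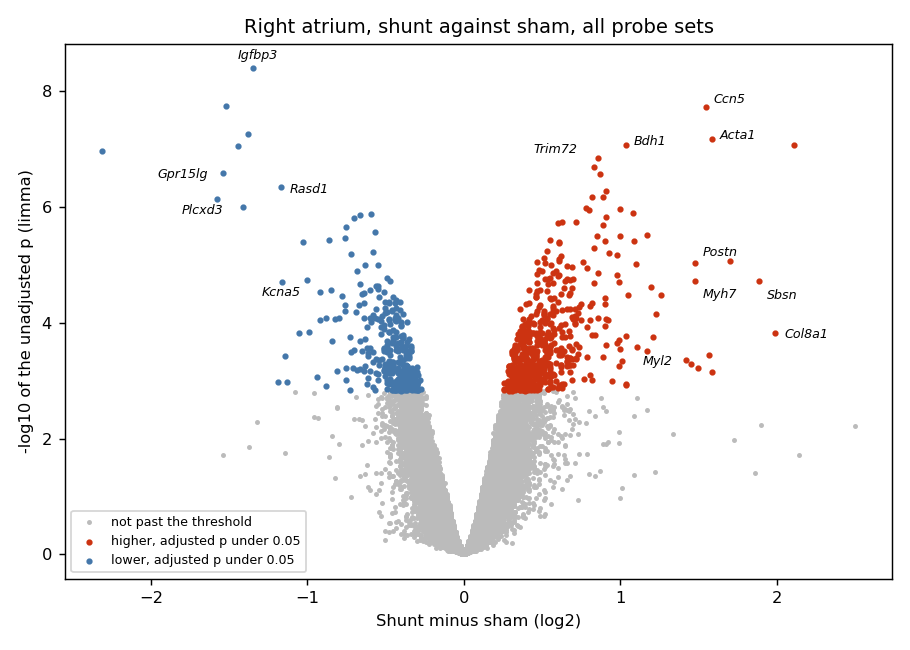
Shunt minus sham in the right atrium on the log2 scale (horizontal) against -log10 of the unadjusted limma p (vertical) for 31042 probe sets. Red points are the 591 higher and blue points the 332 lower probe sets past an adjusted p of 0.05, and some genes named in the text are marked.

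Among the well known genes of cardiac load and the fetal programme, Acta1 and Myh7 rose most, Nppb rose less and Nppa did not pass. Acta1, the skeletal muscle alpha-actin expressed in fetal and overloaded hearts, stood at 11.68, 11.68 and 11.76 in shunt and 9.86, 10.44 and 10.05 in sham tissue. All 3 shunt pools lay over 1 log2 unit above every sham pool. Acta1 rose by 1.59 ± 0.14 (3.01-fold, adjusted p = 0.000341). Myh7, the slow myosin heavy chain of fetal and ventricular muscle, stood at 9.45, 10.46 and 10.01 against 8.71, 8.46 and 8.30. Its lowest shunt pool was replicate 1, still above all sham pools, and it rose by 1.48 ± 0.22 (2.80-fold, adjusted p = 0.0068). A further probe set of Myh7 also rose, by 1.57. Myh7 is also a ventricular marker, and its unevenness over the shunt pools is taken up with those markers below. Nppb, the precursor of BNP, stood at 13.30, 13.34 and 13.26 against 12.93, 12.89 and 12.81, with no overlap of the groups. It rose by 0.42 ± 0.08 (1.34-fold, adjusted p = 0.019).

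Of 22 measured fetal and stress genes of cardiomyocytes 5 rose (22.7%, against 2.83% of all genes) and none fell, with a median difference of 0.12. Besides Acta1, Myh7 and Nppb these were Rcan1, an inhibitor of calcineurin that is itself switched on by calcineurin signalling (0.46 ± 0.11, adjusted p = 0.0452), and Ankrd1, a stretch-responsive protein of the sarcomere and nucleus (0.29 ± 0.06, adjusted p = 0.0326). Nppa, in contrast with Nppb, stood at 14.42, 14.42 and 14.42 against 14.42, 14.37 and 14.43, and its groups overlapped (0.01 ± 0.06, adjusted p = 0.938). Values this near the top of the scale, whose highest value was 14.43, are compressed, and a change of Nppa may not be measurable. Acta1 and Myh7 kept the call when any 1 array was left out. Nppb lost it without shunt replicates 1 or 2 or sham replicates 2 or 3, with an adjusted p of up to 0.0869. Rcan1 and Ankrd1 lost it without any 1 of the 6 right atrial arrays, with an adjusted p of up to 0.146 and 0.128. Rcan1 also lost it without left atrial shunt replicate 2 or sham replicates 2 or 3.

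**Figure D2:**
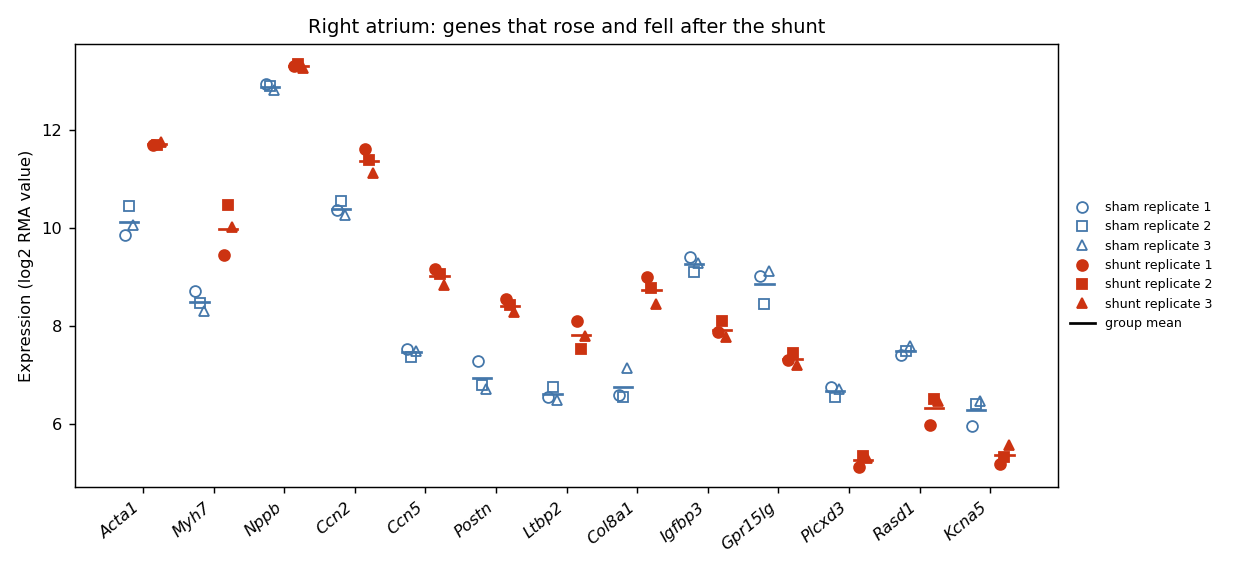
Log2 RMA values (vertical) of 13 genes in each right atrial pool, with open blue symbols for sham, filled red symbols for shunt, symbol shapes for replicate numbers and bars for group means. Shunt and sham do not overlap for any of the 13, from Acta1 (11.68 to 11.76 against 9.86 to 10.44) to Kcna5 (5.18 to 5.56 against 5.95 to 6.47).

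Ccn2, the connective tissue growth factor and a stretch-induced matricellular protein, stood at 11.60, 11.39 and 11.12 against 10.36, 10.54 and 10.27. The groups were apart and replicate 1 was the highest shunt pool. Ccn2 rose by 0.98 ± 0.13 (1.97-fold, adjusted p = 0.00427) and kept the call without any 1 array. The promoters of Acta1 and Ccn2 are shown because both genes rose together and are textbook targets of muscle and stretch transcription factors. The 250 bases before the start of each gene are from RefSeq on the build GRCr8, both on the minus strand, Acta1 at chr19:68784195-68784444 and Ccn2 at chr1:22624615-22624864, written 5′ to 3′ along the gene. Capitals mark the CArG box, the motif of serum response factor, and the MCAT element, CATTCC or its reverse complement GGAATG, the motif of TEAD factors.
Acta1: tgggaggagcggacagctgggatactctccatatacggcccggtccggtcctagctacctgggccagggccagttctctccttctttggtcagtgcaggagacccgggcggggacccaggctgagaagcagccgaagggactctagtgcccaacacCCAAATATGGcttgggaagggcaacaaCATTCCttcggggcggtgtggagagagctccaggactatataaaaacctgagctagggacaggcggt
Ccn2: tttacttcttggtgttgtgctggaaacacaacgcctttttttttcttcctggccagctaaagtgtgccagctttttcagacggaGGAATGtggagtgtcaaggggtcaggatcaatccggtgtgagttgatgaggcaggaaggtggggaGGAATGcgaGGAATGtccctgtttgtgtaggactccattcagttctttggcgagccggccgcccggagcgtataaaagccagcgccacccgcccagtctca
In Acta1 the CArG box began at -94 and an MCAT element at -67, counted so that the base before the start is -1. In Ccn2 there was no CArG box and there were 3 MCAT elements, at -166, -101 and -92, and no match overlapped another. Windows of 300 bases, 250 before and 50 after the start, were searched on both strands. A CArG box was present in 1.64% and an MCAT element in 13.9% of all 27457 windows. Of the 25 largest rises, 17 had a window, with a CArG box in 3 (Acta1, Myl3 and Pilra) and an MCAT element in 4 (Acta1, Ccn2, Myl3 and Rpl3l). Of the 25 largest falls, 19 had a window, with a CArG box in 0 and an MCAT element in 5. A match of letters does not show that a factor binds there.

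Of 12 measured markers of ventricular cardiomyocytes 6 rose (50%, against 2.83% of all genes) and none fell, unevenly over the pools, with a median difference of 0.55 against 0.02 over all genes. Myl2 stood at 11.45, 12.83 and 12.82 in shunt against 11, 10.93 and 10.90 in sham tissue. Replicate 1 lay 0.51 above the sham mean and the other shunt pools almost 2 units above it. Myl2 rose by 1.42 ± 0.30 (adjusted p = 0.0285). A dimmer probe set of Myl2 went the opposite way, at 4.60, 4.93 and 5.07 against 5.22, 5.55 and 5.47 (-0.55 ± 0.13, adjusted p = 0.0418).

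Myl3, the ventricular and slow-muscle essential light chain, showed the same unevenness, at 10.78, 12.05 and 11.92 against 10.17, 10.10 and 10.12, and rose by 1.45 ± 0.31 (adjusted p = 0.0317). Irx4, a transcription factor confined to ventricular muscle in the heart, stood at 4.18, 5.86 and 5.94 against 4.44, 4.31 and 4.26. Its level on shunt replicate 1 was below all sham pools while the other shunt pools were over 1 unit above them, and it did not pass the test (0.99 ± 0.34, adjusted p = 0.13). A dimmer probe set of Irx4 differed by 0.03 ± 0.14 (adjusted p = 0.941). Rpl3l, a ribosomal protein specific to heart and skeletal muscle, followed the order of Myl3 over the shunt pools, at 6.66, 8.32 and 8.19 against 6.59, 6.15 and 5.92. It rose by 1.5 ± 0.33 (adjusted p = 0.0332). Of 43 cytosolic ribosomal protein genes it was the 1 that passed (2.33%, near the 2.83% of all genes that rose).

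Hey2, a Notch target and repressor of atrial genes in ventricular muscle, rose by 0.70 ± 0.12 (adjusted p = 0.0136). Lbh, a transcriptional cofactor of the developing heart, rose by 0.69 ± 0.12 (adjusted p = 0.0136), and Mpped2 by 0.40 ± 0.10 (adjusted p = 0.0431). The mean level of the 12 markers was 7.85, 8.39 and 8.32 in shunt against 7.63, 7.53 and 7.56 in sham. Of the 12 markers 0 were highest on shunt replicate 1, while 7 were highest on shunt replicate 2 (58.3%) and 3 on shunt replicate 3 (25%). Over all genes the shares highest on shunt replicates 1, 2 and 3 were 22.2%, 18.9% and 13%. Myh7, which the list shares with the fetal genes, was also lowest on replicate 1 among the shunt pools. In bulk tissue more cells of a type and more RNA per cell cannot be told apart.

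Without shunt replicate 1, Myl2 was 1.88 above sham (adjusted p = 0.00143), Myl3 1.86 (adjusted p = 0.0107), Rpl3l 2.04 (adjusted p = 0.000594) and Irx4 1.57 (adjusted p = 0.000594). Irx4 passed only without it. These are the 4 genes for which replicate 1 lay at least 1 unit below both other shunt pools. Leaving it out had to enlarge their differences, so these limma p-values describe the unevenness and are no further test. With replicate 1 as the only shunt array the differences were 0.51 for Myl2, 0.65 for Myl3, 0.44 for Rpl3l, -0.16 for Irx4 and 0.96 for Myh7. Acta1 was about as far above sham on that pool alone as over all shunt pools, by 1.56. A single pool holds no spread between shunt pools, so no test is given for it. Myl2, Myl3 and Rpl3l lost the call without any other right atrial array than shunt replicate 1, with an adjusted p of up to 0.123, 0.130 and 0.133 without shunt replicate 2. Hey2 and Lbh lost it without shunt replicate 2 or sham replicate 2, up to 0.0735 and 0.0688. Mpped2 lost it without each right atrial array and without left shunt replicate 2 or sham replicates 1 or 3, up to 0.160. Whether ventricular or atrioventricular muscle entered some pools was not tested.

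**Figure D3:**
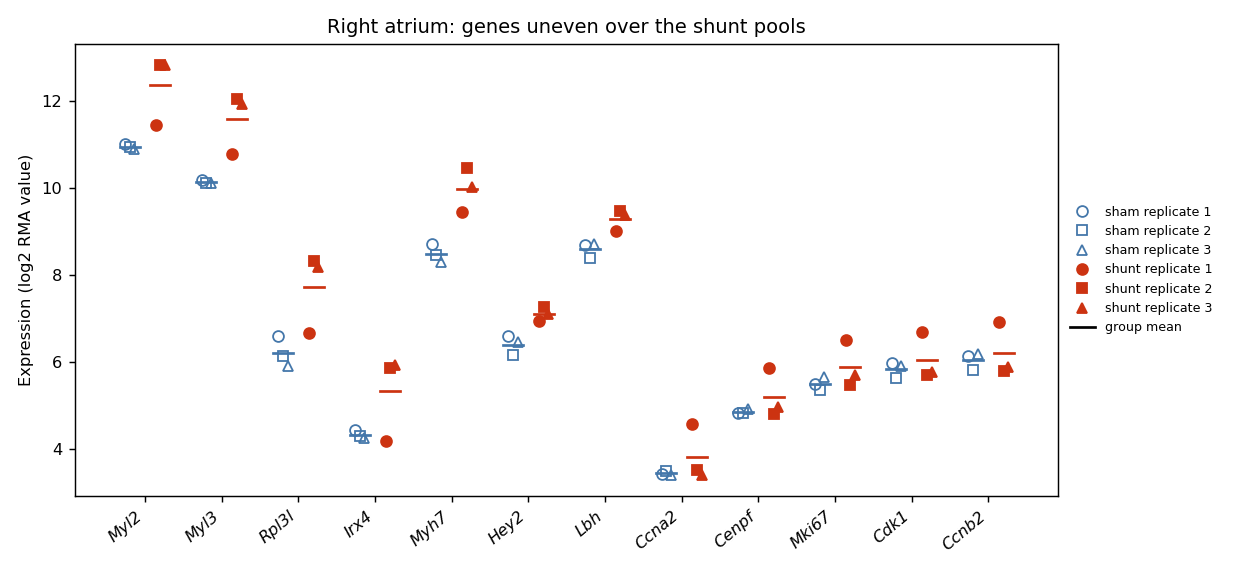
Log2 RMA values (vertical) of 7 ventricular or muscle genes and 5 cell cycle genes in each right atrial pool, with open blue symbols for sham, filled red symbols for shunt, symbol shapes for replicate numbers and bars for group means. Shunt replicate 1, the filled circle, is the lowest shunt pool for Myl2 (11.45 against 12.83 and 12.82) and Irx4 and the highest for Ccna2 (4.57 against 3.53 and 3.40) and Mki67.

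Shunt replicate 1 also stood apart in genes of cell division, which were looked for after the pools had been compared. Among 14217 genes, 7 lay at least 1 log2 unit above both other shunt pools on replicate 1 and 4 at least 1 unit below them, while no gene did so on shunt replicates 2 or 3. The 4 low genes were Myl2, Myl3, Rpl3l and Irx4. The 7 high genes were the cell cycle genes Ccna2, Ccnb2, Cks2, Cdkn3 and Kif20a, with RT1-Bb and Rfx4. A dimmer probe set of RT1-Bb was instead lowest on replicate 1 among the shunt pools, as given in the closing text. Ccna2, the cyclin of S phase and early mitosis, stood at 4.57, 3.53 and 3.40 in shunt and 3.44, 3.49 and 3.41 in sham tissue, so that replicate 1 was alone above the others. Mki67, the proliferation marker Ki-67, stood at 6.51, 5.47 and 5.71 against 5.50, 5.35 and 5.65, again high in replicate 1 alone, and did not pass (0.39 ± 0.26, adjusted p = 0.438). Of 67 cell cycle genes 38 had their highest value on shunt replicate 1 (56.7%), against 22.2% of all genes.

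Of these 67 genes 1 rose and 1 fell between the groups (1.49% each, against 2.83% and 1.14% of all genes), with a median difference of 0.08. Cdkn1a, the cell cycle inhibitor p21, rose by 0.39 ± 0.08 (adjusted p = 0.0245), and lost the call without shunt replicates 1 or 2 or any sham array, up to 0.102. Aurkb, the kinase of the chromosomal passenger complex, stood at 6.57, 6.22 and 6.19 against 7.35, 7.19 and 7.91. It fell by 1.16 (SE 0.18, adjusted p = 0.00682) and kept the call without any 1 array. Ccnd1, the cyclin of the G1 phase, stood at 10.32, 10.49 and 10.44 against 9.62, 9.30 and 9.61, with no overlap (0.91 ± 0.31, adjusted p = 0.133), and its other probe sets rose by 0.75 and 0.90 (adjusted p = 0.0107 and 0.00293).

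Of 16 measured markers of atrial muscle 1 rose and 1 fell (6.25% each, against 2.83% and 1.14% of all genes), with a median difference of -0.06. Hey1, a Notch target of atrial muscle, rose by 0.52 ± 0.11 (adjusted p = 0.0285). Kcna5, which carries the ultrarapid repolarising current of atrial muscle, stood at 5.18, 5.33 and 5.56 against 5.95, 6.40 and 6.47, all shunt pools being below all sham pools. It fell by 0.92 (SE 0.14, adjusted p = 0.00839). Myh6, the fast alpha-myosin heavy chain of the atrium, lay at 13.94, 13.99 and 13.97 against 14.06, 14.04 and 14.01, near the top of the scale (-0.06 ± 0.06, adjusted p = 0.606). Myl4, Myl7 and Sln differed by -0.03, -0.12 and -0.08 and did not pass. Kcna5 kept the call without any 1 array. Hey1 lost it without each of the 6 right atrial arrays, up to 0.122.

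Of 46 potassium channel genes 1 rose (2.17%, against 2.83% of all genes) and 2 fell (4.35%, against 1.14%), with a median difference of -0.05. Besides Kcna5, Kcnk2, the stretch-sensitive background channel TREK-1, fell by 0.40 (SE 0.09, adjusted p = 0.0418). Kcnj8, the vascular KATP channel pore also found in pericytes, rose by 0.44 ± 0.11 (adjusted p = 0.0452). Of 45 sodium, calcium and pacemaker channel and connexin genes only Gja4, the endothelial connexin 37, rose (2.22% of the list, by 0.56 ± 0.11, adjusted p = 0.019). Gja5 and Gja1, the connexins of atrial conduction, differed by 0.14 ± 0.13 and -0.17 ± 0.07 (adjusted p = 0.60 and 0.22). Of 14 sinoatrial and conduction markers only Bmp4 rose (7.14% of the list), described below with its family. None of 40 calcium handling genes passed at a median of -0.05. Their most abundant members were near the top of the scale, Atp2a2, the sarcoplasmic calcium pump, at 13.84, 13.85 and 13.84 against 13.90, 13.90 and 13.93 (adjusted p = 0.591). Dimmer probe sets of Atp2a2 lay between -0.37 and -0.04 and did not pass (adjusted p of 0.198 or more). Phospholamban (Pln) differed by -0.03 ± 0.07 (adjusted p = 0.855). Its other probe sets differed by 0.13 and -0.19 and did not pass (adjusted p = 0.302 and 0.283). Kcnk2 and Kcnj8 lost the call without each right atrial array, up to 0.132 and 0.163, and also without some left atrial arrays (shunt replicate 2 and sham replicate 3 for Kcnk2, the sham replicates for Kcnj8). Gja4 lost it without shunt replicates 1 or 2 or sham replicates 2 or 3, up to 0.0733.

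Sarcomere and Z-disc genes outside the fetal list held 1 rise among 39 genes (2.56%, against 2.83% of all genes) and a median of -0.02. Synpo2l, an actin-associated Z-disc protein, stood at 10.87, 10.82 and 10.74 against 10.17, 10.32 and 10.21. The groups were well apart, and Synpo2l rose by 0.57 ± 0.08 (adjusted p = 0.00603). Trim72, a membrane repair protein of striated muscle also called MG53, stood at 8.88, 8.91 and 9.03 against 8.15, 8.11 and 7.98. It rose by 0.86 ± 0.08 (adjusted p = 0.000444), with narrow spread in both groups. Both kept the call without any 1 array.

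The extracellular matrix held the largest group of rising genes. Of 30 collagen genes 8 rose and 1 fell with a median difference of 0.21, of 31 genes of elastic fibres and crosslinking 6 rose and none fell (median 0.21), and of 42 matricellular and glycoprotein genes 6 rose and 1 fell (median 0.10). The shares that rose were 26.7%, 19.4% and 14.3%, against 2.83% of all genes. Col8a1, a short-chain collagen of vessel walls and of remodelling tissue, stood at 9.0, 8.78 and 8.44 against 6.58, 6.54 and 7.13. It had the largest rise of any named gene, 1.99 ± 0.37 (3.97-fold, adjusted p = 0.018), though with a wide error.

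Both chains of the basement membrane collagen IV rose, Col4a2 by 0.91 ± 0.10 (adjusted p = 0.00109) and Col4a1 by 0.72 ± 0.15 (adjusted p = 0.0281). Col12a1 and Col14a1, which sit on the surface of collagen fibrils, rose by 0.62 ± 0.14 and 0.52 ± 0.10 (adjusted p = 0.0352 and 0.0194). Col6a2, a chain of the microfibrillar collagen VI, rose by 0.47 ± 0.09 (adjusted p = 0.0188), and so did Col6a1 and Col5a1 (0.37 ± 0.08 and 0.39 ± 0.08, adjusted p = 0.0368 and 0.0233). The main fibrillar collagens did not pass, although the difference of Col1a1 was of the size of those of Col5a1 and Col6a1. Col1a1 stood at 11.16, 10.87 and 10.85 against 10.54, 10.49 and 10.68, with no overlap, and did not pass (0.39 ± 0.11, adjusted p = 0.0811). Col3a1 stood at 12.83, 12.65 and 12.66 against 12.68, 12.61 and 12.62, and its groups overlapped (0.08 ± 0.08, adjusted p = 0.664).

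**Figure D4:**
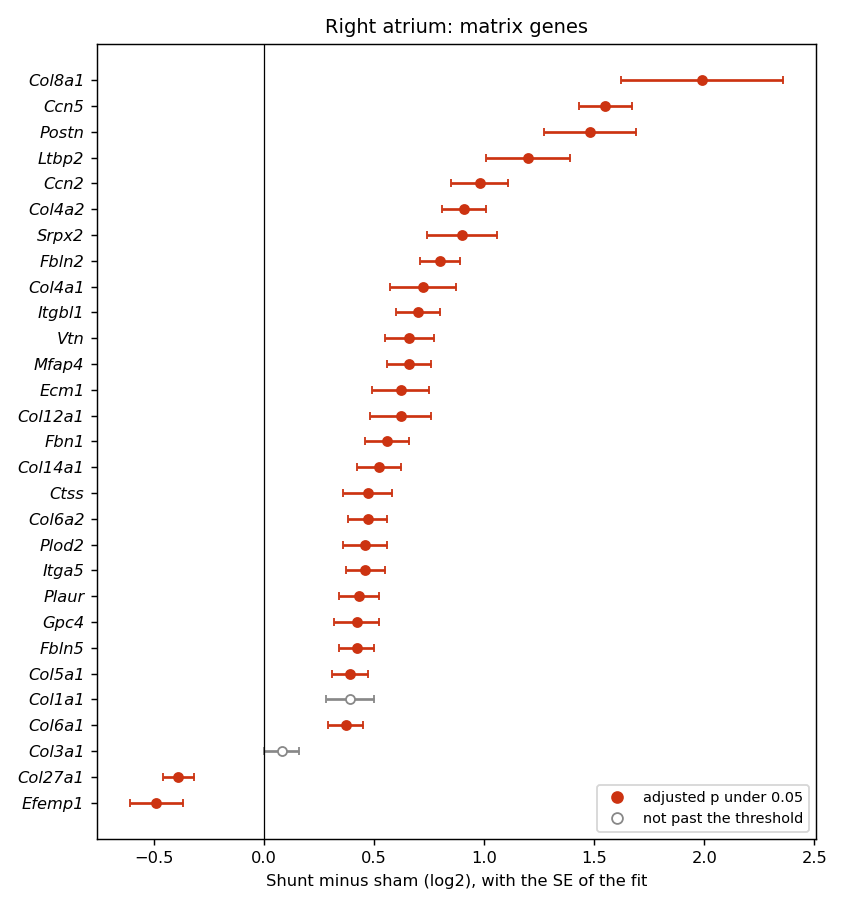
Shunt minus sham on the log2 scale (horizontal, with the SE of the fit as bars) for each gene of 6 matrix lists past the threshold, and for Col1a1 and Col3a1. Filled points passed an adjusted p of 0.05 and open points did not. All but Col27a1 and Efemp1 of the filled points lie above 0, and Col8a1 (1.99) is the highest.

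Ccn5, a matricellular protein of the connective tissue growth factor family that lacks its C-terminal module, stood at 9.16, 9.05 and 8.83 against 7.53, 7.36 and 7.49. The groups were separated by more than 1 unit with little spread within them, and Ccn5 rose by 1.55 ± 0.12 (2.94-fold, adjusted p = 0.000193). Periostin (Postn), a product of activated fibroblasts, stood at 8.54, 8.42 and 8.28 against 7.28, 6.80 and 6.72. It rose by 1.48 ± 0.21 (2.79-fold, adjusted p = 0.00496). Srpx2, Vtn (vitronectin) and Ecm1 rose by 0.90 ± 0.16, 0.66 ± 0.11 and 0.62 ± 0.13 (adjusted p = 0.0153, 0.0116 and 0.0323).

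Among elastic fibre genes Ltbp2, a microfibril protein related to the binding proteins of latent TGF-beta, stood at 8.10, 7.52 and 7.79 against 6.55, 6.76 and 6.49. All shunt pools were above all sham pools, and it rose by 1.20 ± 0.19 (2.30-fold, adjusted p = 0.00768). Fbln2 (fibulin 2) rose by 0.80 ± 0.09 (adjusted p = 0.00158), Mfap4 by 0.66 ± 0.10 (adjusted p = 0.0067), Fbn1 (fibrillin 1) by 0.56 ± 0.10 (adjusted p = 0.0146) and Fbln5 by 0.42 ± 0.08 (adjusted p = 0.0211). Plod2, the lysyl hydroxylase of collagen crosslinks, rose by 0.46 ± 0.10 (adjusted p = 0.0352). Of 29 proteoglycan and hyaluronan genes 1 rose (3.45%), the glypican Gpc4 (0.42 ± 0.10, adjusted p = 0.0431). Of 44 proteases and inhibitors 2 rose (4.55%), Ctss, given below with the macrophage markers, and Plaur, the urokinase receptor (0.43 ± 0.09, adjusted p = 0.0248). Of 34 integrins and laminins 2 rose (5.88%), Itgbl1 (0.70 ± 0.10, adjusted p = 0.0067) and Itga5, the fibronectin receptor subunit (0.46 ± 0.09, adjusted p = 0.018). The shares of the proteoglycan, protease and integrin lists lay nearer the 2.83% of all genes than those of the collagen, elastic fibre and matricellular lists.

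Ccn2, Ccn5, Postn, Ltbp2, Col4a2, Fbln2, Mfap4 and Itgbl1 kept the call without any 1 array. Each of the other matrix genes named as rising lost it without shunt replicate 2 and without sham replicate 2, and all of them but Vtn without further arrays too, with an adjusted p of up to 0.0632 (Vtn) to 0.159 (Ctss), and up to 0.0757 for Col8a1. The genes that fell were Col27a1, a fibrillar collagen of cartilage (-0.39 ± 0.07, adjusted p = 0.0128, and 0.0668 without shunt replicate 2), and Efemp1, fibulin 3 (-0.49 ± 0.12, adjusted p = 0.0489, and up to 0.175 without each right atrial array or left sham replicate 3). On shunt replicate 1, the pool with the lowest ventricular markers, 22 of the 31 elastic fibre genes and 18 of the 30 collagens had their highest value (71.0% and 60.0%, against 22.2% of all genes), a count made after the pools had been compared.

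Of 25 measured fibroblast markers 8 rose (32.0%, against 2.83% of all genes) and none fell, with a median difference of 0.30, and the mean level of the list was 8.47, 8.48 and 8.39 in shunt against 8.12, 8.04 and 8.14 in sham. In 14 of the 25 all shunt pools were above all sham pools, against 19.4% of all genes. Meox1, a homeobox factor of activated fibroblasts, stood at 6.83, 6.79 and 6.44 against 5.37, 5.43 and 5.58 and rose by 1.23 ± 0.21 (adjusted p = 0.0129). Pi16, a marker of adventitial fibroblasts, rose by 1.01 ± 0.22 (adjusted p = 0.0298), Thy1 by 0.63 ± 0.12 (adjusted p = 0.019), and Scx, the tendon and matrix transcription factor scleraxis, by 0.57 ± 0.11 (adjusted p = 0.0161). Gfpt2, an enzyme of the hexosamine pathway that feeds glycosylation of matrix proteins, rose by 0.46 ± 0.07 (adjusted p = 0.00913), and S100a4 and vimentin (Vim) also rose (0.41 ± 0.09 and 0.33 ± 0.08, adjusted p = 0.0314 and 0.0418). Outside the list, Cd248 (endosialin), a surface protein of fibroblasts and pericytes, stood at 7.13, 7.44 and 6.97 against 6.46, 5.92 and 6.23 and rose by 0.98 ± 0.14 (adjusted p = 0.00626). The part of fibroblast number in the matrix result was not tested. Ccn5 and Cd248 kept the call without any 1 array. Gfpt2 lost it without shunt replicate 2 alone (adjusted p = 0.0536). Meox1, Thy1 and Scx lost it without shunt replicate 2 or sham replicate 2, among other arrays for Meox1 and Thy1, up to 0.0642, 0.0852 and 0.0816. Pi16 lost it without each right atrial array, up to 0.108, and S100a4 and Vim without several, up to 0.107 and 0.150 without sham replicate 2.

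Ligands of the TGF-beta superfamily were among the rising signalling genes. Of 29 TGF-beta and activin genes 4 rose (13.8%, against 2.83% of all genes) and none fell, at a median of 0.20. Tgfb1 itself stood at 6.51, 6.64 and 6.54 against 6.04, 5.80 and 6.17 and rose by 0.55 ± 0.13 (adjusted p = 0.0431). Inhbb, the activin B subunit, rose by 0.55 ± 0.13, Fstl1, a secreted glycoprotein of the follistatin family, by 0.49 ± 0.12, and Tgfb1i1 (Hic-5), a focal adhesion adaptor, by 0.44 ± 0.10 (adjusted p = 0.0377, 0.0451 and 0.0419). Of 26 BMP genes Bmp4 and Bmp6 rose (7.69% of the list), by 0.77 ± 0.18 and 0.61 ± 0.13 (adjusted p = 0.0404 and 0.0261). All 6 of these calls lay near the threshold: each was lost without shunt replicate 2 and without sham replicate 2, among other arrays, with an adjusted p of up to 0.104 (Bmp6) to 0.158 (Tgfb1).

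Of 45 FGF, PDGF, EGF and VEGF ligands and receptors 5 rose (11.1%, against 2.83% of all genes) and 1 fell (2.22%, against 1.14%), with a median of -0.01. Pdgfrb, the PDGF receptor of pericytes and fibroblasts, stood at 8.22, 8.12 and 8.07 against 7.23, 7.24 and 7.48. The groups were well apart, and it rose by 0.82 ± 0.14 (adjusted p = 0.0106). Fgf9 rose by 0.90 ± 0.15 (adjusted p = 0.0107), the lymphatic growth factor Vegfd by 0.66 ± 0.14 (adjusted p = 0.0305), its co-receptor neuropilin 2 (Nrp2) by 0.56 ± 0.11 (adjusted p = 0.0222) and Angpt2 by 0.49 ± 0.12 (adjusted p = 0.0432). Fgfr2 stood at 5.22, 5.35 and 5.11 against 5.58, 6.11 and 5.73 and fell by 0.58 (SE 0.12, adjusted p = 0.0246). Of 35 Wnt genes 2 rose (5.71%) and 1 fell (2.86%). The receptors Fzd2 and Fzd1 rose by 0.69 ± 0.10 and 0.39 ± 0.10 (adjusted p = 0.00514 and 0.0499). The secreted inhibitor Sfrp5 fell by 0.50 (SE 0.11, adjusted p = 0.0374). Frzb, another secreted Wnt inhibitor, stood at 7.64, 7.18 and 7.15 against 6.23, 6.39 and 5.85 without passing (1.17 ± 0.32, adjusted p = 0.0717). Pdgfrb and Fzd2 kept the call without any 1 array. Fgf9 lost it without shunt replicate 2 alone (adjusted p = 0.0583), and the others without that array among several, up to 0.0810 (Fgfr2) to 0.183 (Fzd1).

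In the insulin-like growth factor axis 2 of 21 genes fell (9.52%, against 1.14% of all genes) and none rose. Igfbp3, the main binding protein of circulating IGF, had the smallest p-value of all probe sets. It stood at 7.87, 8.09 and 7.77 against 9.40, 9.09 and 9.29, a full unit apart between the groups. It fell by 1.35 (SE 0.10, 2.54-fold lower, adjusted p = 0.000126), and a further probe set fell by 1.38. The imprinted noncoding gene H19 stood at 8.59, 8.80 and 8.65 against 9.46, 9.69 and 9.42 and fell by 0.84 (SE 0.16, adjusted p = 0.0206). In the renin-angiotensin and endothelin list of 29 genes 1 rose and 1 fell (3.45% each). Ace, the angiotensin-converting enzyme, rose by 0.49 ± 0.10 (adjusted p = 0.0215). Angiotensinogen (Agt), the substrate of the cascade, stood at 6.31, 5.89 and 6.19 against 7.14, 6.85 and 7.15 and fell by 0.92 (SE 0.16, adjusted p = 0.0137). Of 45 adrenergic, muscarinic and G protein genes 1 rose and 1 fell (2.22% each). The adenosine receptor Adora2a rose by 0.52 ± 0.09 (adjusted p = 0.0146). Rasd1, a Ras-like protein induced by glucocorticoids that modulates G protein signalling, stood at 5.98, 6.51 and 6.47 against 7.40, 7.49 and 7.59 and fell by 1.17 (SE 0.12, 2.25-fold lower, adjusted p = 0.00102). Igfbp3 and Rasd1 kept the call without any 1 array. H19 lost it without each right atrial array, up to 0.0882, Agt without shunt replicate 2 or sham replicates 1 or 3, up to 0.0730, Ace without shunt replicates 1 or 2 or sham replicates 1 or 2, up to 0.0836, and Adora2a without shunt replicate 2 or sham replicates 1 or 2, up to 0.0757.

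Of 30 macrophage markers 6 rose (20.0%, against 2.83% of all genes) and none fell, with a median difference of 0.34. In 21 of the 30 all shunt pools lay above all sham pools, against 19.4% of all genes. The mean level of the list was 7.0, 6.94 and 6.94 in shunt and 6.66, 6.65 and 6.62 in sham. Clec4a3, a C-type lectin of myeloid cells, stood at 7.37, 7.45 and 7.29 against 6.55, 6.49 and 6.36 and rose by 0.91 ± 0.18 (adjusted p = 0.0221). Gpnmb, a glycoprotein of lipid-laden and tissue-repairing macrophages, rose by 0.79 ± 0.15, Aif1 by 0.74 ± 0.15, lysozyme (Lyz2) by 0.68 ± 0.14, the mannose receptor Mrc1 by 0.59 ± 0.14 and cathepsin S (Ctss) by 0.47 ± 0.11 (adjusted p = 0.0158, 0.023, 0.0278, 0.0427 and 0.0472). A dim probe set of Aif1 fell by 0.47 (adjusted p = 0.0354). Cd68, a lysosomal protein of macrophages, stood at 6.69, 6.44 and 6.44 against 5.94, 6.24 and 6.13 and did not pass (0.42 ± 0.16, adjusted p = 0.174). Each of the 6 calls was lost without shunt replicates 1 or 2 or sham replicate 2, and all but that of Gpnmb without further arrays, with an adjusted p of up to 0.0729 (Gpnmb) to 0.159 (Ctss).

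Of 32 lymphocyte, granulocyte and mast cell markers none rose and 2 fell (6.25%, against 1.14% of all genes). The cytotoxic cell genes Klrd1 and Gzmb fell by 0.51 and 0.35 (adjusted p = 0.0148 and 0.0451), both from levels below the array medians. Of 58 chemokine and cytokine genes 7 rose (12.1%, against 2.83% of all genes) and 2 fell (3.45%, against 1.14%). Ccl2, the chemokine that draws monocytes, stood at 7.09, 7.07 and 6.79 against 6.20, 5.87 and 6.10 and rose by 0.93 ± 0.13 (adjusted p = 0.004). The decoy receptor osteoprotegerin (Tnfrsf11b) rose by 0.86 ± 0.13 (adjusted p = 0.00593). Cxcr4, the receptor of the chemokine CXCL12, rose by 0.68 ± 0.10 (adjusted p = 0.00676), and its other probe sets rose by 0.76 and 0.89. Tnfrsf12a, the receptor of the cytokine TWEAK, rose by 0.68 ± 0.11 (adjusted p = 0.00862) and Sele, the endothelial selectin, by 0.62 ± 0.11 (adjusted p = 0.0148). Il6r and Il16 also rose (0.41 ± 0.07 and 0.30 ± 0.07, adjusted p = 0.0143 and 0.0461), while Cxcl14 (-0.48 ± 0.09, adjusted p = 0.0136) and Tnf (-0.38 ± 0.09, adjusted p = 0.0352) fell. Ccl2, Tnfrsf11b, Cxcr4 and Tnfrsf12a kept the call without any 1 array. Sele and Cxcl14 lost it without shunt replicate 1 or sham replicate 3, Sele also without others, up to 0.0691 and 0.0599, and Il6r, Il16 and Tnf without shunt replicate 2 or sham replicates 2 or 3, the latter pair also without others, up to 0.0735, 0.132 and 0.114. Klrd1 and Gzmb lost it without shunt replicate 1 or sham replicates 2 or 3, Gzmb also without others, up to 0.0624 and 0.132.

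Of 43 interferon and antigen presentation genes 3 rose (6.98%, against 2.83% of all genes) and 1 fell (2.33%, against 1.14%). The class II genes RT1-DMb and RT1-Da and the guanylate-binding protein Gbp2 rose, by 0.69 ± 0.14, 0.55 ± 0.11 and 0.39 ± 0.09 (adjusted p = 0.0234, 0.0232 and 0.0488). Ciita, the transactivator of class II genes, fell by 0.37 (adjusted p = 0.0498) from a level below the array medians. RT1 genes are closely related, and their probe sets may share signal. Of 40 complement and coagulation genes 2 rose (5%) and 1 fell (2.5%). Thrombomodulin (Thbd) and the complement receptor C5ar1 rose, by 0.54 ± 0.12 and 0.43 ± 0.11, and fibrinogen gamma (Fgg), which was dim, fell by 0.53 (adjusted p = 0.0309, 0.0487 and 0.0138). Each of these calls was lost without shunt replicate 2 and without sham replicate 2, among other arrays, with an adjusted p of up to 0.0714 (Fgg) to 0.176 (Ciita).

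Of 29 endothelial markers 4 rose (13.8%, against 2.83% of all genes) and none fell at a median of 0.13. The apelin receptor Aplnr stood at 8.07, 8.01 and 8.07 against 7.50, 7.08 and 7.52, with the 3 shunt pools almost equal, and rose by 0.68 ± 0.12 (adjusted p = 0.0116). Its ligand Apln stood at 8.01, 8.01 and 7.86 against 7.32, 6.97 and 7.47 without passing (0.71 ± 0.18, adjusted p = 0.0566). Sox18, Ecscr and Esam rose by 0.50 ± 0.11, 0.41 ± 0.10 and 0.37 ± 0.08 (adjusted p = 0.0352, 0.0431 and 0.0341). Of 23 smooth muscle and pericyte markers 4 rose (17.4%) and none fell at a median of 0.21: Pdgfrb and Kcnj8, given above, Mcam (0.63 ± 0.13, adjusted p = 0.0254) and the pericyte proteoglycan Cspg4 or NG2 (0.33 ± 0.08, adjusted p = 0.0429). The mean level of the mural list was 8.14, 8.19 and 8.14 against 7.97, 7.94 and 8.06. Aplnr kept the call without any 1 array but not as the mean of its probe sets, since its other probe set lay at -0.24. Sox18, Ecscr, Esam, Mcam and Cspg4 lost it without shunt replicates 1 or 2 or sham replicates 1 or 2, among other arrays, up to 0.103 (Mcam) to 0.152 (Ecscr).

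None of 23 adipocyte markers passed, although their median difference was -0.18 and in 10 of them all shunt pools lay below all sham pools, against 12.6% of all genes. Cidea, a lipid droplet protein of brown fat, stood at 11.34, 11.34 and 10.77 against 12.08, 11.66 and 12.14 (-0.81 ± 0.22, adjusted p = 0.0681). The mean level of the list was 6.35, 6.29 and 6.23 in shunt and 6.48, 6.40 and 6.49 in sham. Of 30 neuronal and Schwann cell markers 1 rose and 1 fell (3.33% each). Prph, the intermediate filament peripherin of peripheral neurons, rose by 0.67 ± 0.11 (adjusted p = 0.0089). Neuropeptide Y (Npy), a cotransmitter of sympathetic nerves, fell by 0.68 (SE 0.15, adjusted p = 0.0347). Of 19 mesothelial and epicardial markers 1 fell (5.26%). Krt19 (keratin 19) stood at 6.27, 5.92 and 5.74 against 6.88, 6.97 and 6.71 and fell by 0.88 (SE 0.15, adjusted p = 0.0136). None of the 5 erythrocyte markers passed. Prph kept the call without any 1 array. Krt19 lost it without shunt replicate 2 or sham replicate 2, up to 0.0659, and Npy without shunt replicates 2 or 3, sham replicates 1 or 3 or left sham replicate 3, up to 0.139.

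**Figure D5:**
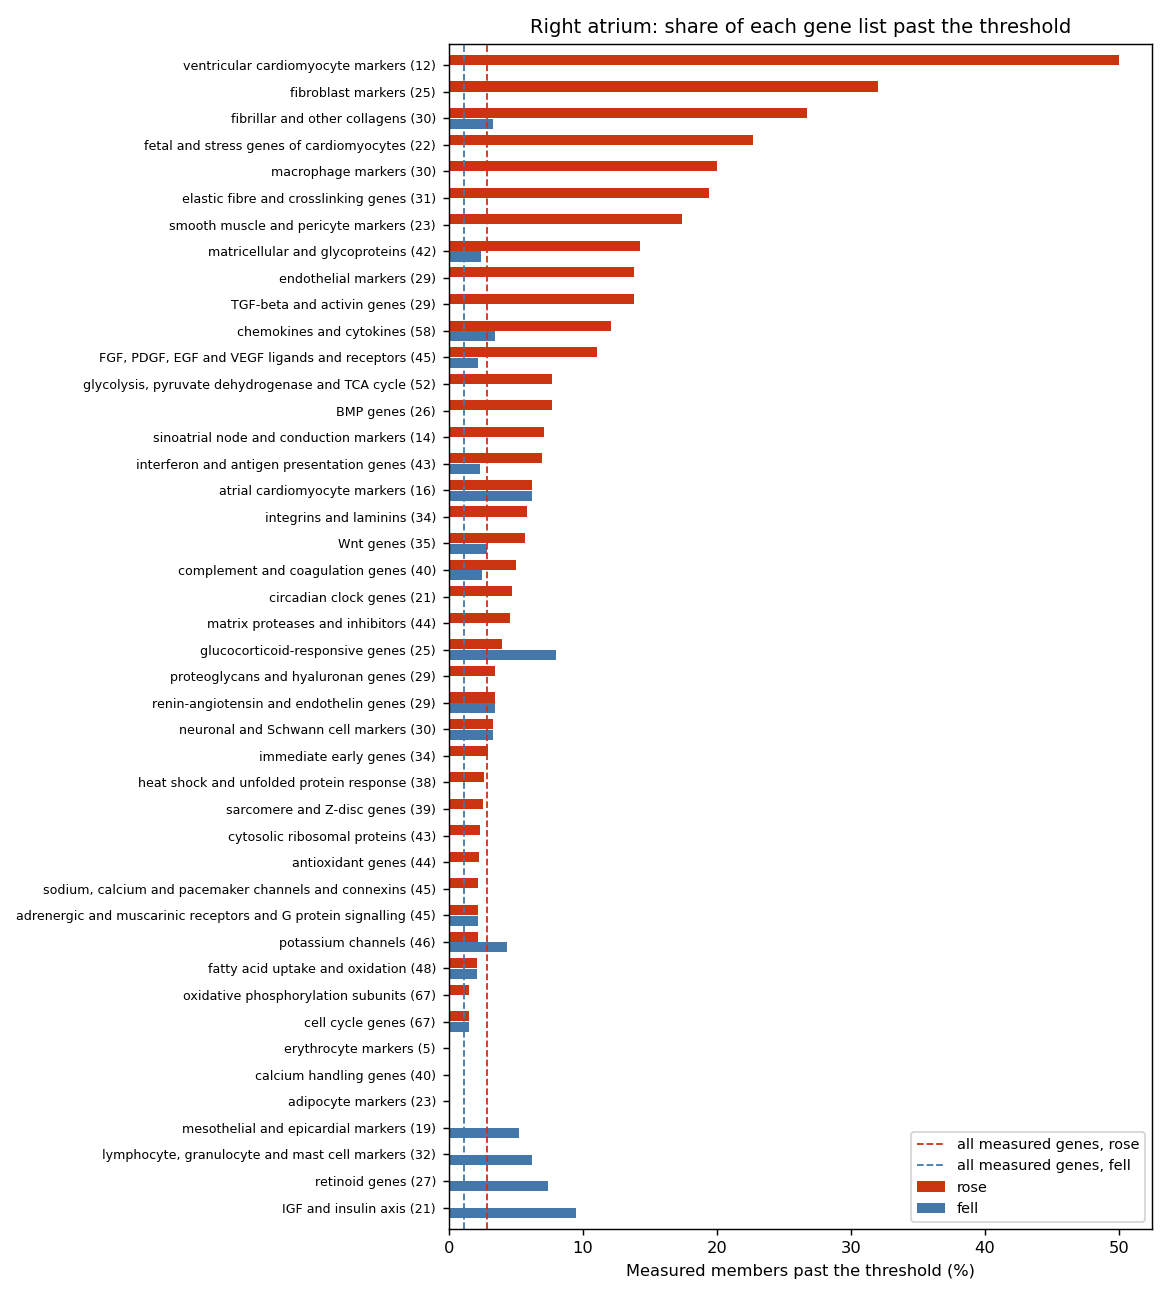
Share of the measured members (percent, horizontal) of each of 44 gene lists that rose (red) or fell (blue) past an adjusted p of 0.05, with the number measured in brackets and dashed lines for all 14217 genes (2.83% and 1.14%). The ventricular, fibroblast, collagen and fetal gene lists have the largest shares that rose (50%, 32.0%, 26.7% and 22.7%).

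Of 67 subunits of oxidative phosphorylation 1 rose (1.49%, against 2.83% of all genes). This was Cox7a1, the muscle isoform of a cytochrome oxidase subunit, at 8.32, 8.27 and 8.68 against 7.62, 7.81 and 7.63 (0.74 ± 0.12, adjusted p = 0.0114). Of 52 genes of glycolysis and the TCA cycle 4 rose (7.69%) and none fell: Pfkfb3, which makes an activator of phosphofructokinase (0.58 ± 0.11), Pfkp, the platelet phosphofructokinase (0.42 ± 0.10), hexokinase 1 (Hk1, 0.42 ± 0.07) and Pdhx, a subunit of pyruvate dehydrogenase (0.36 ± 0.07), with adjusted p of 0.0215, 0.0451, 0.0136 and 0.0194. Of 48 fatty acid genes 1 rose and 1 fell (2.08% each). Acsl5 rose by 0.41 ± 0.08 (adjusted p = 0.0201) and Pdk4, the kinase that blocks pyruvate dehydrogenase, fell by 0.49 (SE 0.08, adjusted p = 0.0123). Bdh1, the first enzyme of ketone body use, stood at 6.23, 6.09 and 6.19 against 5.05, 5.28 and 5.04. It was on average a full unit higher with narrow spread (1.04 ± 0.10, 2.06-fold, adjusted p = 0.000341), and a further probe set rose by 1.05. Of 27 retinoid genes 2 fell (7.41%, against 1.14% of all genes), Retsat (retinol saturase) and the receptor Rxrg, by 0.85 and 0.53 (SE 0.13 and 0.10, adjusted p = 0.00819 and 0.0183). Lpin1, a phosphatidate phosphatase and coactivator of fatty acid oxidation, fell by 0.68 (SE 0.10, adjusted p = 0.00569). Cox7a1, Bdh1, Retsat and Lpin1 kept the call without any 1 array. Pdk4 lost it without shunt replicates 1 or 2 (up to 0.0533) and the others without shunt replicate 1, among other arrays, up to 0.0673 (Hk1) to 0.160 (Pfkp).

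Of 34 immediate early genes 1 rose (2.94%, against 2.83% of all genes), Ier3, by 0.51 ± 0.09 (adjusted p = 0.0129), while Nr4a1 stood at 7.56, 6.88 and 7.51 against 8.11, 8.05 and 8.18 and did not pass (-0.80 ± 0.27, adjusted p = 0.133). Of 21 clock genes 1 rose (4.76%). Per2 stood at 8.68, 8.78 and 8.92 against 8.0, 8.32 and 7.99. It rose by 0.69 ± 0.15 (adjusted p = 0.0285), while its other probe set lay at -0.22 (adjusted p = 0.204). Of 38 heat shock and unfolded protein genes only Hspa2 rose (2.63% of the list, by 0.65 ± 0.12, adjusted p = 0.0148). Of 44 antioxidant genes only Cybb, the catalytic subunit of the phagocyte NADPH oxidase, rose (2.27%, by 0.69 ± 0.16, adjusted p = 0.0418). Of 25 glucocorticoid-responsive genes Cdkn1a rose (4%) and Rasd1 and Pdk4 fell (8%), each given above. Ier3, Per2, Hspa2 and Cybb lost the call without shunt replicates 1 or 2, and all but Ier3 without further arrays, up to 0.0635, 0.0972, 0.0701 and 0.154.

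The remaining large rises belonged to no list. Sbsn (suprabasin), a secreted epithelial protein, stood at 8.42, 8.04 and 7.09 against 6.18, 5.64 and 6.05. All shunt pools were higher, replicate 3 least, and it rose by 1.89 ± 0.29 (3.72-fold, adjusted p = 0.00676). Pilra, an inhibitory receptor of myeloid cells, stood at 8.25, 7.97 and 8.13 against 7.05, 5.86 and 6.68, where the sham pools varied by more than a unit, and rose by 1.59 ± 0.36 (adjusted p = 0.0353). Phlda1 rose by 1.17 ± 0.15 (adjusted p = 0.00276), the uncharacterised gene LOC102553868 by 1.08 ± 0.13 (adjusted p = 0.00173), Reg3g, a C-type lectin induced in injured epithelia and heart, by 1.04 ± 0.20 (adjusted p = 0.019) and Fibin, a secreted protein, by 0.99 ± 0.22 (adjusted p = 0.0327). Islr, a marker of mesenchymal stromal cells, rose by 0.92 ± 0.16 (adjusted p = 0.0137), Tmem179 by 0.98 ± 0.19 (adjusted p = 0.0215) and the ADP receptor P2ry12 by 0.91 ± 0.16 (adjusted p = 0.0136). Sbsn, Phlda1 and LOC102553868 kept the call without any 1 array. The others lost it without shunt replicate 2, among other arrays, up to 0.0667 (P2ry12) to 0.132 (Pilra).

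Among the largest falls, Gpr15lg, a secreted ligand of the receptor GPR15, stood at 7.31, 7.45 and 7.21 against 9.01, 8.45 and 9.12. The nearest pools were a full unit apart, and it fell by 1.54 (SE 0.16, 2.91-fold lower, adjusted p = 0.000654). Plcxd3, a phospholipase domain protein, stood at 5.12, 5.34 and 5.31 against 6.75, 6.54 and 6.71 and fell by 1.41 (SE 0.16, 2.65-fold lower, adjusted p = 0.00158). Rec114, a protein of meiotic recombination, fell by 1.0, the organic cation transporter Slc22a3 by 0.78, the ubiquitin ligase Znrf3, which removes Wnt receptors, by 0.76, and Pcp4l1 by 0.75 (adjusted p = 0.00676, 0.00894, 0.00285 and 0.00219). All of these kept the call without any 1 array. LOC100911508, Rab15, Fam216b, Aldh1b1, Nt5dc1, Epb41l3, Slc17a7 and Mettl7b completed the 25 largest falls, with differences between -0.99 and -0.67 and adjusted p between 0.0108 and 0.0493. Each of these lost the call without at least 1 right atrial array, up to 0.0583 (Mettl7b, without shunt replicate 2) to 0.153 (Fam216b, without shunt replicate 2).

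Whether the right atrium answered the shunt differently from the left was tested as the difference of the effects, right minus left, with no arrays shared between the atria. It passed for 8 of 31042 probe sets (0.0258%), 1 higher (0.00322%) and 7 lower (0.0226%), 4467 having an unadjusted p under 0.05 (14.4%). For most leading genes the effects in the atria did not differ past the threshold, and they are given side by side. Acta1 rose by 1.59 in the right and 1.11 in the left atrium (adjusted p = 0.000341 and 0.00415, adjusted p of the difference 0.308). Myh7 rose by 1.48 and 1.44 (adjusted p of the difference 0.959), and Ltbp2 by 1.20 and 1.48 (adjusted p of the difference 0.654). Igfbp3 fell by 1.35 and 1.03, Gpr15lg by 1.54 and 1.71, Rasd1 by 1.17 and 1.52 and Aurkb by 1.16 and 1.47, with adjusted p of the differences of 0.318, 0.751, 0.386 and 0.583. Postn was 1.48 ± 0.21 above sham in the right and 0.16 ± 0.21 in the left atrium, a difference of 1.31 ± 0.29 that did not pass (adjusted p = 0.141). Rpl3l, at 1.5 ± 0.33 and -0.49 ± 0.33, differed by 2.00 ± 0.47 (adjusted p = 0.144).

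Of the 8 probe sets 7 had the lower effect in the right atrium. Hamp, the precursor of the iron hormone hepcidin, stood at 12.61, 12.64 and 12.42 against 12.40, 12.35 and 12.39 in the right atrium (0.17 ± 0.12, adjusted p = 0.465), while it rose by 1.87 ± 0.12 in the left. The difference of -1.69 ± 0.17 had an adjusted p of 0.00753. Cxcr5, the chemokine receptor of follicular B cells, stood at 6.26, 6.35 and 6.33 against 6.93, 7.04 and 6.96. It fell by 0.66 (SE 0.08, adjusted p = 0.00174) in the right atrium and lay at 0.27 ± 0.08 in the left (difference -0.93 ± 0.11, adjusted p = 0.0235). A dimmer probe set of Cxcr5 lay at -0.10 in the right and 0.01 in the left atrium, without passing (difference -0.10 ± 0.14, adjusted p = 0.765). Acyp2, an acylphosphatase of muscle, stood at 8.54, 8.57 and 8.76 against 9.27, 9.43 and 9.27. It fell by 0.70 (SE 0.08, adjusted p = 0.00176) and lay at 0.13 ± 0.08 in the left atrium (difference -0.83 ± 0.12, adjusted p = 0.0441). Ccr6, a chemokine receptor of lymphocytes and dendritic cells, was dim at 3.57, 3.63 and 3.66 against 3.97, 4.04 and 4.12 and fell by 0.43 (SE 0.07, adjusted p = 0.0116), against 0.29 ± 0.07 in the left (difference -0.72 ± 0.10, adjusted p = 0.0441). Trim72 and the anion transporter Slc22a8 came next in order of p, with differences of 0.76 ± 0.12 and -1.01 ± 0.15 that did not pass (adjusted p = 0.0587 and 0.0507). The number of probe sets past the threshold ranged from 0 to 21 when 1 array was left out, being 0 in the limma fit without right sham replicate 1 (4076 with an unadjusted p under 0.05) and 21 without left shunt replicate 3.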

How the data were processed

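Total RNA from pools of 2 tissues was labelled and hybridised to 1-colour Affymetrix rat arrays, 1 array per pool, per the labels' protocols. The authors deposited 1 log2 value for each probe set and array, and the submitters' processing notes name RMA. That method corrects background, forces all arrays to a common distribution and combines each set's probes, so a change shared by most transcripts is not visible. The version of RMA is not given in the sources used here. Of 31099 probe sets 57 controls were left out and 31042 tested. The array annotation named 1 gene for 20826 of these, several for 436 and none for 9780, which gave 14217 genes. The precision is limited by 3 arrays a group, since arrays have no read depth.

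Groups and replicate numbers came from the sample titles. All 12 arrays entered 1 limma 3.58.1 fit in R 4.3.3 (lmFit, contrasts.fit, eBayes), with a mean for each group, without further normalization or filter. Tests were two-sided, with Benjamini-Hochberg adjustment over all probe sets. The code was tested on simulated data for the right atrium comparison with 31042 probe sets. Same-numbered right atrial pools did not deviate together (correlations of -0.01, -0.03 and -0.04), so the numbers were not used as pairs.

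The genes named were the 25 largest rises and 25 largest falls among called genes whose groups did not overlap, up to 6 members of each of 44 lists, the 10 smallest p-values of the right minus left difference, and a set of genes of atrial load. The members and lists were chosen with earlier results of these data known. Named later, after their values were seen, were the genes uneven on shunt replicate 1 and members that complete a short count. The closing text gives the effect of leaving out dim probe sets, other normalizations, variance priors, array weights, right atrial arrays alone, a replicate block, other ways to pick probe sets and leaving out each array.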

Additional observations from a re-analysis of the deposited data

Results flagged for a closer look

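The effect of the shunt differed between the atria, by the test of the difference itself in the limma fit, for 8 probe sets of 31042. The right minus left difference was -1.69 for Hamp (adjusted p = 0.00753), -0.93 for Cxcr5 (adjusted p = 0.0235), -0.83 for Acyp2 (adjusted p = 0.0441) and -0.72 for Ccr6 (adjusted p = 0.0441), whose values are given above. A dimmer probe set of Cxcr5 had a difference of -0.10 that did not pass (adjusted p = 0.765).

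A probe set of Larp4b, an RNA-binding protein, had a difference of -1.03 (adjusted p = 0.0388). In the right atrium this probe set stood at 7.78, 7.69 and 7.96 in shunt against 8.50, 8.69 and 8.42 in sham tissue, a difference of -0.72, and in the left atrium it was 0.30 above sham. The brighter probe set of Larp4b was 0.01 above sham in the right atrium (adjusted p = 0.978), so the probe sets of this gene disagreed.

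A probe set of the zinc finger gene Zfp292 had a difference of -0.84 (adjusted p = 0.0299), from -0.39 in the right and 0.45 in the left atrium. It is 1 of 6 probe sets of that gene, and in the right atrium the others lay between -0.05 and 0.09. Another of them went the opposite way, with a difference of 0.57 that did not pass (adjusted p = 0.145), from 0.09 in the right and -0.48 in the left atrium, so the probe sets of Zfp292 disagreed. A probe set with no gene name in the annotation used here had a difference of 1.15 (adjusted p = 0.0383), with 0.85 in the right and -0.30 in the left atrium. Another unnamed probe set had a difference of -0.68 (adjusted p = 0.0441), with -0.59 and 0.09.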

How the results depend on the processing

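The 923 probe sets past the threshold in the right atrium became 1061 without dim probe sets, 664 after renewed quantile normalization, 904 after subtraction of array medians, 1210 with a trended robust prior, 2352 with array weights, 1415 with right atrial arrays alone and 225 with the replicate number as a block. They were 902 with 1 probe set per gene, 765 with the mean of a gene's probe sets, and 148 to 1631 when 1 array was left out. The highest of these counts was without left shunt replicate 3 and the lowest without right shunt replicate 2. Of the probe sets past the threshold 53.0% were higher after renewed quantile normalization, against 64.0%. The 8 probe sets of the right minus left difference became 4 after subtraction of array medians, 15 with a trended robust prior, 15 with array weights and 0 in the limma fit with the replicate block (3984 with an unadjusted p under 0.05), and 0 to 21 when 1 array was left out. Same-numbered pools did not deviate together. The median difference of all probe sets or genes lay within 0.04 of 0 under each of these settings. Of 150 genes named and past the threshold, 39 kept that side in all alternatives that tested them and left at least 2 arrays a group. The call was lost by 110 without at least 1 array, by 32 after renewed quantile normalization and by 83 with the block. As the mean of a gene's probe sets 19 lost it, among them Col12a1, Fgfr2, Hk1, Per2, Pi16 and Plaur. The other probe set of Hk1, Per2, Pi16 and Plaur lay at -0.25, -0.22, -0.04 and -0.25, opposite in sign to the call. None of the 150 changed sign in any of these alternatives or with replicate 1 as the only right shunt array. As the mean of all its probe sets, Larp4b was at -0.36 against 0.01 for the brightest, and RT1-Bb at 1.10 against -0.31. The causes of these changes were not tested. With 3 pools a group, small changes and those of transcripts near the top of the scale are not resolved.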

Other observations

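Further gene groups were uneven over the right atrial shunt pools. Of 43 interferon and antigen presentation genes 25 had their highest value on shunt replicate 2 (58.1%, against 18.9% of all genes), among them Mx1, an interferon-induced antiviral GTPase, at 4.68, 5.54 and 5.06 in shunt replicates 1, 2 and 3 and 4.70, 4.41 and 4.46 in sham. Of 34 immediate early genes 16 had their highest value on shunt replicate 1 (47.1%, against 22.2% of all genes). These counts were made after the pools had been compared and describe single pools.

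The class II gene RT1-Bb varied widely over the shunt pools, at 7.66, 5.90 and 6.61 against 7.12, 6.98 and 7.0 in sham tissue, and Rfx4, a transcription factor, stood at 4.71, 3.52 and 2.70 against 4.64, 5.46 and 4.79. Neither passed the test (-0.31 ± 0.39 and -1.32 ± 0.39, adjusted p = 0.72 and 0.0882). A dimmer probe set of RT1-Bb went the opposite way, at 4.45, 7.12 and 6.91 in shunt against 3.75, 3.62 and 3.6 in sham. Its lowest shunt pool was replicate 1, and it did not pass (2.5 ± 0.76, adjusted p = 0.0948), so the probe sets of RT1-Bb disagreed. In the sham group, 2 genes lay at least 1 log2 unit below both other pools on replicate 1, 2 above them and 1 below them on replicate 2, and none on replicate 3.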
